A study of Mus musculus with 43 samples.

Results

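Matrix metalloproteinases (MMPs) were followed across mouse lungs given extract of house dust mite (HDM), a common inhaled allergen, with and without an antibody against IL-33, a cytokine released by stressed barrier cells. The 8 genes described are Mmp2, Mmp3, Mmp8, Mmp9, Mmp12, Mmp13, Mmp14 and Mmp19. They were taken by symbol, through their Entrez gene IDs, from a raw count table of 24475 IDs, and all 8 were among the 15598 genes with enough counts to test. Bulk strand-specific mRNA sequencing of whole-lung RNA gave 43 libraries in 5 groups. Of these, 15 came from mice given HDM for 15 weeks together with an anti-IL-33 antibody, 4 from mice given HDM for 15 weeks with an isotype control antibody, 7 from mice given HDM for 15 weeks and no antibody, 10 from mice given HDM for 4 weeks and no antibody, and 7 from mice given saline. Every mouse, the saline controls included, had the genotype Il33hu/hu, a humanised Il33 gene, and a strain background of C57BL/6NTac with 129S6SvEvTac. No time is labelled for the saline libraries, so in comparisons with saline the effect of HDM and that of time cannot be told apart. The sources used here do not give the clone, dose or start of the antibody, or how old the mice were. Nothing in the labels says that libraries of a group came from separate animals, so p-values measure the spread between samples, which may be technical.

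MMPs are zinc-dependent endopeptidases, secreted or anchored to the cell surface, and are made as inactive proenzymes that other proteases open. They cut collagens, elastin, laminins and other matrix proteins, and they also release or inactivate cytokines and cell-surface receptors. Tissue inhibitors of metalloproteinases (TIMPs) block their active sites. In lung, Mmp12 (macrophage elastase) is made chiefly by macrophages, Mmp8 (neutrophil collagenase) is stored in neutrophil granules, and Mmp2 (gelatinase A) and Mmp14 (a membrane-anchored MMP that activates proMMP-2) come largely from fibroblasts and other stromal cells.

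Total counts per library (in units of 1e6) were 5.13 to 12.6 with anti-IL-33, 8.35 to 10.2 with isotype, 4.91 to 11.5 at 15 weeks without antibody, 4.795 to 11.96 at 4 weeks and 7.09 to 12.4 in saline. The lowest count of a member in 1 library was 4, for Mmp13 in saline. Levels are in CPM, counts per 1e6 counts of a library, with library sizes scaled by TMM. Labels number the samples in 2 blocks with a gap between them, hereafter number range 1 (22 libraries) and number range 2 (21 libraries), and the range was a term in the fit. No source used here says what the blocks stand for. The replicate 1 library at 15 weeks without antibody and the replicate 3 library at 4 weeks stood apart, with mean correlations of 0.919 and 0.922 with their own groups, against at least 0.950 for every other library. Because the samples are bulk lung, fewer cells of a type and less RNA per cell cannot be told apart.

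Of the 8 genes, 4 lie together on chromosome 9, in a cluster of 10 MMP genes that spans 427 kb of GRCm38.p6. In order along the chromosome the cluster holds Mmp13 (Entrez ID 17386, chr9:7272514-7283333), Mmp12 (17381, chr9:7344397-7360461), Mmp1b, Mmp3 (17392, chr9:7445822-7455975), Mmp1a, Mmp10, Mmp8 (17394, chr9:7558429-7568486), Mmp27, Mmp20 and Mmp7. The other 4 lie apart: Mmp2 (17390) at chr8:92827290-92853421, Mmp9 (17395) at chr2:164940326-164955850, Mmp14 (17387) at chr14:54431598-54442456 and Mmp19 (58223) at chr10:128790910-128800827. MMP promoters of the cluster are known for AP-1 sites close to the start of transcription, where Fos and Jun proteins bind. RefSeq promoter windows (GRCm38.p6, 250 bases before to 50 bases after the start) were at hand for 5 of the 8 genes, with 2 starts for Mmp12, which makes 6 windows. The AP-1 motif TGAGTCA, searched on both strands as TGAGTCA or TGACTCA, was found in 3 of them, and in 5.20% of all 32851 windows of the same length. The 3 windows are printed because their genes are neighbours that moved differently, as the values will show. Each is on the plus strand, and the capitals mark the AP-1 motif. The first covers chr9:7272264-7272563 and has the motif 35 bases before the start, the second, for the downstream start of Mmp12, covers chr9:7347124-7347423 with the motif 44 bases before it, and the last covers chr9:7445572-7445871 with the motif 46 bases before it.
Mmp13: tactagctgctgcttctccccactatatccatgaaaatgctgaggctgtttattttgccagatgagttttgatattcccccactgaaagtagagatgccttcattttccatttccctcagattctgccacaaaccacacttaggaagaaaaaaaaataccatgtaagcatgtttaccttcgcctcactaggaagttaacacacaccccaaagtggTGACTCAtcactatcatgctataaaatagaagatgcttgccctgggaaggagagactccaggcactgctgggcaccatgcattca
Mmp12: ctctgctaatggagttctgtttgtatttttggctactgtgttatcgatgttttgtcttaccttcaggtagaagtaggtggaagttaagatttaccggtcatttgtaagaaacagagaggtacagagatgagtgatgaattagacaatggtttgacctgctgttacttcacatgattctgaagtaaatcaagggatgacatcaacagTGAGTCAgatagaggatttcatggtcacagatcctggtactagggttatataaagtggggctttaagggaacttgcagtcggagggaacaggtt
Mmp3: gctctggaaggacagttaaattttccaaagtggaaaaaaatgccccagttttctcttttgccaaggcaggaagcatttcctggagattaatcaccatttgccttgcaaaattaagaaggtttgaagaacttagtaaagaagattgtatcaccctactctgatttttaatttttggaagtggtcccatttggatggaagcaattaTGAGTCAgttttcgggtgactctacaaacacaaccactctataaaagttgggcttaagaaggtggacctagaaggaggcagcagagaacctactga
The window of Mmp8, the window of Mmp14 and the upstream window of Mmp12 did not hold these letters. The STAT6 motif, TTC followed by any 4 bases and GAA, was found in none of the 6 windows and in 6.95% of all windows. A match is a description of the letters and no evidence of binding.

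The first comparison asked which MMP transcripts differed in HDM lungs from saline lungs at the early time. At 4 weeks, 5 of the 8 genes were higher than in saline and 2 were lower (adjusted p under 0.05, edgeR's quasi-likelihood test with Benjamini-Hochberg adjustment over all 15598 genes). The groups differed over a large part of the lung transcriptome, and 56.8% of all tested genes passed the same threshold, 29.3% higher and 27.5% lower. The median log2 fold change was 1.07 over the 8 genes and 0.01 over all genes. For 5 members the libraries of the groups did not overlap, as was so for 20% of all tested genes.

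Mmp12, the elastase of macrophages, had the largest difference of the 8. It stood at 305 to 2302 CPM in the 4-week libraries (median 908) and at 4.69 to 29.3 CPM in saline (median 9.17). No library of the groups overlapped, and the transcript was 83.1-fold higher at 4 weeks (log2 fold change 6.38 ± 0.72 SE, adjusted p = 5.80e-09). Mmp13, an interstitial collagenase that also cuts cartilage collagen, stood at 6.61 to 55.2 CPM at 4 weeks (median 15.7) and was scarce in saline, at 0.539 to 2.52 CPM (median 1.13). It too rose in every 4-week library, by 17.1-fold (4.10 ± 0.58, adjusted p = 2.91e-07). Mmp19, an MMP of macrophages and epithelium that cuts basement membrane proteins, stood at 164 to 453 CPM at 4 weeks (median 179) and 16.6 to 36.9 CPM in saline (median 22.4), 8.48-fold higher (3.08 ± 0.36, adjusted p = 8.73e-09).

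The stromal pair rose less and more evenly. Mmp14 stood at 96.4 to 152 CPM at 4 weeks (median 118) and 41.6 to 57.5 CPM in saline (median 48.9), 2.41-fold higher with no overlap (log2 fold change 1.27 ± 0.17, adjusted p = 1.02e-07). Mmp2, whose proenzyme Mmp14 activates, stood at 129 to 206 CPM at 4 weeks (median 165) and 63.3 to 115 CPM in saline (median 88.5), 1.83-fold higher (0.87 ± 0.13, adjusted p = 9.94e-07). Within number range 1, which holds 2 saline libraries, the log2 fold changes of these 5 genes were 0.57 to 6.25 and that of Mmp2 was not called (0.57, adjusted p = 0.113). Within range 2 they were 1.05 to 6.44 and all 5 were called.

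The neutrophil-associated and stromelysin genes went the other way. Mmp8 stood at 1.20 to 5.73 CPM at 4 weeks (median 3.41) and 5.05 to 7.997 CPM in saline (median 6.69), 1.77-fold lower with a small overlap (log2 fold change -0.82 ± 0.28, adjusted p = 0.0131). Mmp3 (stromelysin 1, a broad matrix protease of stromal cells that also activates other proMMPs) stood at 15.1 to 22.8 CPM at 4 weeks (median 18.9) and 19.7 to 40.5 CPM in saline (median 21.4), 1.36-fold lower (-0.44 ± 0.17, adjusted p = 0.0222). The Mmp3 difference rests on saline replicate 1, the highest saline library at 40.5 CPM: without it the log2 fold change was -0.29 and was not called. Mmp9 (gelatinase B), at 12.02 to 23.1 CPM at 4 weeks (median 17.2) and 16.3 to 39.7 CPM in saline (median 17.9), did not pass the test (-0.42 ± 0.21, adjusted p = 0.0920), though it was called with library totals alone (-0.47, adjusted p = 0.0394) and in a fit of only these groups (-0.37, adjusted p = 0.0307). Within range 1 neither fall was called (Mmp8 -0.97, adjusted p = 0.291, and Mmp3 -0.63, adjusted p = 0.132), and within range 2 Mmp8 was called at -0.71 and Mmp3 at -0.34 was not (adjusted p = 0.129).

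**Figure D1:**
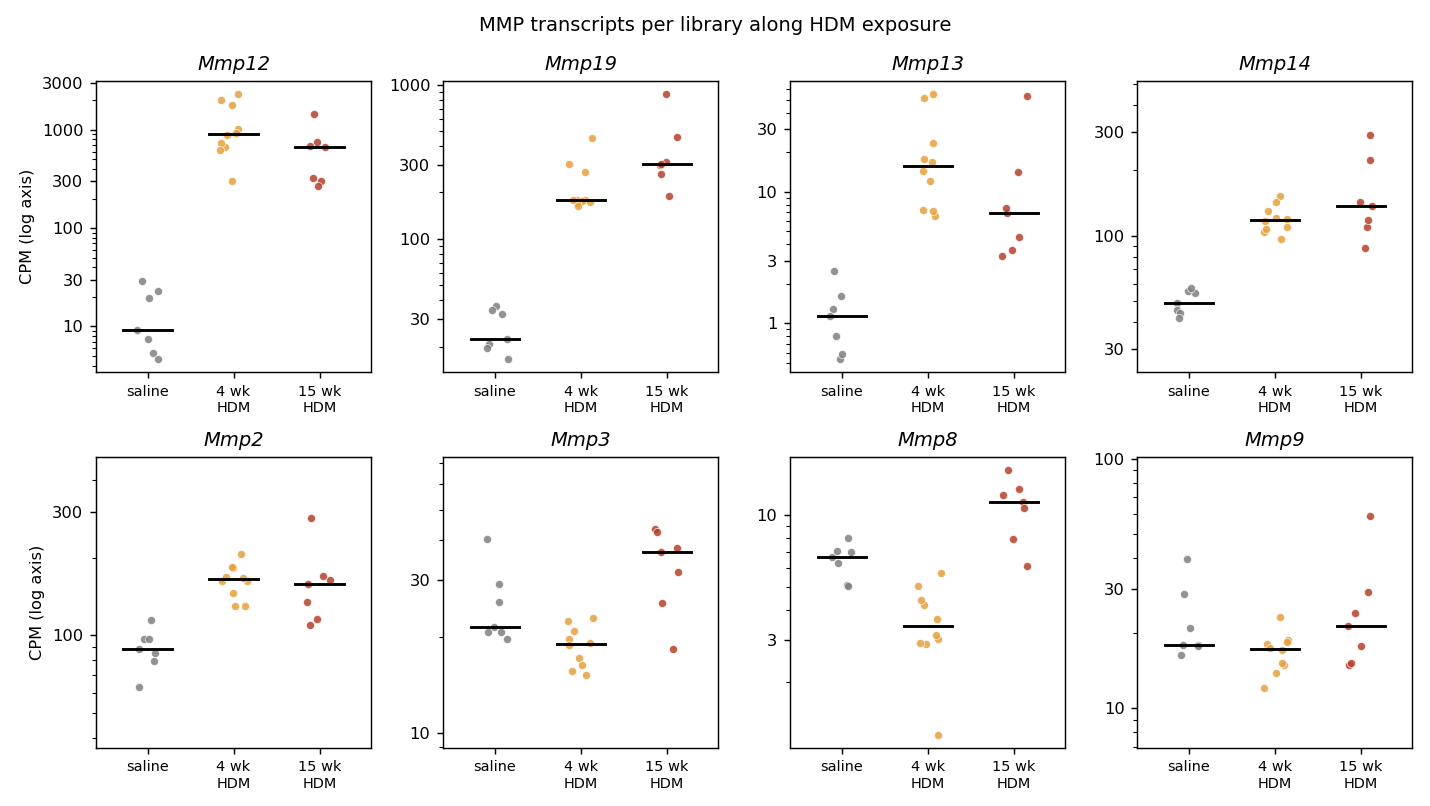
CPM of each MMP (log axis) per library in saline (n = 7), at 4 weeks of HDM (n = 10) and at 15 weeks of HDM without antibody (n = 7). Points are libraries and black lines are medians. The HDM libraries of Mmp12, Mmp19, Mmp13 and Mmp14 all lie above every saline library, and the Mmp8 libraries at 15 weeks all lie above those at 4 weeks.

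After 15 weeks without antibody, 6 of the 8 genes were higher than in saline and none was lower, against a background of 59.2% of all genes changed, 31.2% higher and 28.1% lower. The comparison shares its saline libraries with the one at 4 weeks. The median log2 fold change was 1.26 over the 8 genes and 0.01 over all genes. Between these groups 4 members did not overlap, as was so for 28.6% of all genes.

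Mmp12 stood at 269.9 to 1443 CPM at 15 weeks (median 674), 54.5-fold above saline (log2 fold change 5.77 ± 0.73, adjusted p = 2.95e-08). Mmp19 stood at 189.9 to 866 CPM (median 305), 13.1-fold above saline (3.71 ± 0.39, adjusted p = 8.07e-10). Mmp13 stood at 3.27 to 53.2 CPM (median 6.92), 10.7-fold above saline (3.41 ± 0.62, adjusted p = 1.32e-05). Every 15-week library of these genes exceeded every saline library, but Mmp13 was spread over a 16.3-fold range, and its highest library, replicate 4, was also the highest for Mmp12 and Mmp19. Without replicate 4 the Mmp13 log2 fold change was 2.54 and stayed called.

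Mmp14 stood at 88.1 to 292 CPM at 15 weeks (median 136), 3.18-fold above saline (log2 fold change 1.67 ± 0.19, adjusted p = 2.51e-09). Mmp2 stood at 109.8 to 285 CPM (median 159), 1.80-fold above saline (0.85 ± 0.15, adjusted p = 6.19e-06), with overlap at the low end. The highest value of both came from replicate 1, the library that stands apart, and without the 2 libraries that stand apart the log2 fold changes were 1.47 for Mmp14 and 0.66 for Mmp2, both called.

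Mmp8 stood at 6.14 to 15.5 CPM at 15 weeks (median 11.3), 1.70-fold above saline (log2 fold change 0.77 ± 0.31, adjusted p = 0.0312). This call was lost when any 1 of saline replicates 1 and 3 and 15-week replicates 4 and 7 was left out, with log2 fold changes no lower than 0.68, and with library totals alone (0.60, adjusted p = 0.0783). Mmp3 stood at 18.3 to 43.4 CPM (median 36.7) and did not pass (0.39 ± 0.18, adjusted p = 0.0684), but it did without saline replicate 1 (0.56), 15-week replicate 2 (0.45) or 15-week replicate 6 (0.52). Mmp9 stood at 14.9 to 58.8 CPM (median 21.4) and did not pass either (0.24 ± 0.25, adjusted p = 0.408). Its sign rests on replicate 1 at 58.8 CPM: the log2 fold change was -0.074 without that library and -0.019 when libraries were scaled by their totals alone. Within range 1 the called genes had log2 fold changes of 0.75 to 5.82 and Mmp8 was not called there (0.83, adjusted p = 0.318), and within range 2 all 6 were called at 0.61 to 5.04.

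The direct comparison of 15 with 4 weeks asked which transcripts differed between the HDM times. No saline library is labelled with a time, so longer exposure and elapsed time cannot be told apart here either. Mmp8, Mmp3 and Mmp9 were higher at 15 weeks and none was lower, against 21.4% of all genes changed, 12.3% higher and 9.08% lower. Mmp8 was 3.01-fold higher, and all 7 libraries at 15 weeks lay above all 10 at 4 weeks (log2 fold change 1.59 ± 0.29, adjusted p = 0.000190), which was so for 2% of all genes. Mmp3 was 1.77-fold higher (0.83 ± 0.17, adjusted p = 0.000659), with 6 of the 7 libraries at 15 weeks above the highest 4-week library. Mmp9 was 1.58-fold higher (0.66 ± 0.22, adjusted p = 0.0315), but the call was lost without 15-week replicate 1 (0.32) or 4 (0.63) or 4-week replicate 1 (0.60) or 3 (0.63), and with library totals alone (0.45, adjusted p = 0.0983). Within range 1 the log2 fold changes were 1.80 for Mmp8, 0.84 for Mmp3 and 1.08 for Mmp9, all called, and within range 2 they were 1.503, called, 0.72 and -0.19, not called.

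The 5 genes that rose at both times did not pass the test between them. Mmp12 (log2 fold change -0.61 ± 0.56, adjusted p = 0.457) and Mmp13 (-0.68 ± 0.47, adjusted p = 0.309) had lower estimates at 15 weeks, and Mmp19 (0.62 ± 0.32, adjusted p = 0.161) and Mmp14 (0.40 ± 0.17, adjusted p = 0.0835) had higher ones. Mmp14 was called without 15-week replicate 2 (0.46, adjusted p = 0.0458) or 6 (0.53, adjusted p = 0.0180). Mmp2 stood nearly level (-0.03 ± 0.13, adjusted p = 0.910). The sign for Mmp2 is not settled, since the value was 0.18 within range 1 and between -0.21 and 0.055 without 1 library. The Mmp13 result rests on 15-week replicate 4: without it the log2 fold change was -1.62 (adjusted p = 0.00704, called).

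Per kilobase of exon, which allows levels to be compared between genes, the make-up of the 8 transcripts differed between the groups. In saline, Mmp2 held 37.9 ± 3.48% (SD, n = 7) of the summed CPM per kb, Mmp3 18.2 ± 2.95% and Mmp12 4.46 ± 2.80%. At 4 weeks Mmp12 held 58.2 ± 11.3% (n = 10), Mmp19 14.97 ± 3.52% and Mmp2 13.6 ± 5.004%. At 15 weeks without antibody Mmp12 held 38.1 ± 10.5% (n = 7), Mmp19 27.4 ± 4.97% and Mmp2 14.8 ± 6.34%. Thus Mmp2 was the most abundant of the 8 in saline and Mmp12 at both HDM times, while Mmp13, for all its fold change, held no more than 2.71% in any library. With anti-IL-33 the order changed again: Mmp2 held 30.96 ± 7.53% (n = 15), Mmp19 23.3 ± 5.85% and Mmp12 17.5 ± 10.5%, against 15.3 ± 8.04%, 25.8 ± 6.96% and 40.2 ± 12.9% with isotype (n = 4). These shares are descriptions and were not tested. The summed CPM of the 8 genes was 297 to 999.5 with anti-IL-33 (median 388), 622 to 1863 with isotype (median 1221), 715 to 2837 at 15 weeks without antibody (median 1303), 776 to 2947 at 4 weeks (median 1473) and 197 to 288 in saline (median 236), so every HDM library, with or without anti-IL-33, lay above every saline library.

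**Figure D2:**
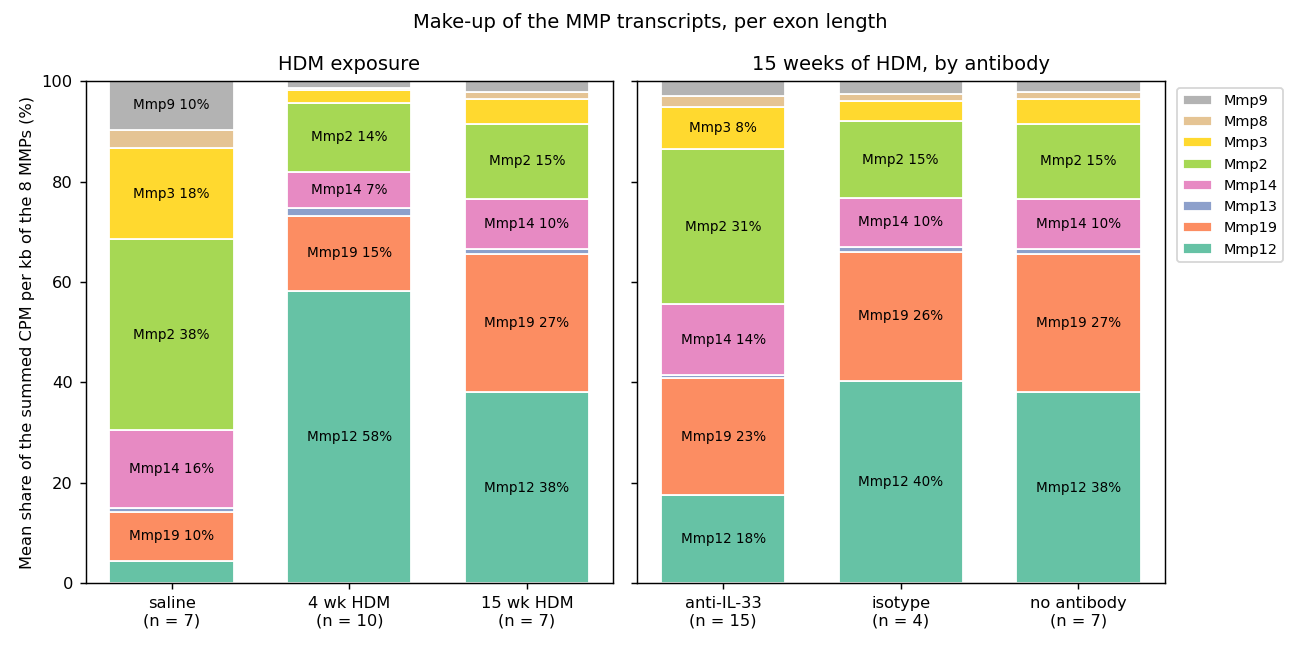
Mean share of each MMP in the summed CPM per kb of exon of the 8 genes, in percent. The left panel gives saline, 4 and 15 weeks of HDM, and the right panel gives 15 weeks of HDM with anti-IL-33, with isotype and without antibody (the no-antibody bar appears in both). Mmp12 holds 58.2% at 4 weeks against 4.46% in saline, and 17.5% with anti-IL-33 against 40.2% with isotype.

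The antibody comparison asked what blocking IL-33 did to these transcripts in lungs exposed for 15 weeks. Against isotype, 5 of the 8 genes were lower with anti-IL-33 and none was higher, with 6.71% of all genes changed, 3.58% higher and 3.14% lower. The median log2 fold change was -0.69 over the 8 genes and 0.01 over all genes. Against the 7 libraries without antibody, 7 of the 8 were lower and none was higher, with 35.8% of all genes changed, 15.9% higher and 19.9% lower, and medians of -0.97 over the 8 genes and 0.00 over all genes. The comparisons share the anti-IL-33 libraries. In neither did the libraries of any member separate without overlap, as 2.43% of all genes did against isotype and 0.417% against no antibody.

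Mmp12 was lower with anti-IL-33 than in both controls. It stood at 15.4 to 437 CPM in the 15 anti-IL-33 libraries (median 73.4), against 386, 664, 1149 and 196 CPM with isotype and 269.9 to 1443 CPM (median 674) without antibody. All anti-IL-33 libraries but replicates 11, 12 and 13 lay below every library of both controls. Mmp12 was 5.70-fold lower than with isotype (log2 fold change -2.51 ± 0.58, adjusted p = 0.0120) and 5.81-fold lower than without antibody (-2.54 ± 0.50, adjusted p = 0.000382).

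Mmp13 was low with anti-IL-33, at 1.13 to 4.70 CPM (median 2.37). It stood at 5.25, 16.95, 13.98 and 3.04 CPM with isotype and 3.27 to 53.2 CPM (median 6.92) without antibody. The groups overlapped only through isotype replicate 4 and the lowest no-antibody libraries. With anti-IL-33 Mmp13 was 4.13-fold lower than with isotype (log2 fold change -2.05 ± 0.54, adjusted p = 0.0246) and 5.66-fold lower than without antibody (-2.50 ± 0.45, adjusted p = 0.000163), and by -1.56 on the log2 scale without 15-week replicate 4. Mmp19 stood at 54.8 to 262 CPM (median 77.4), against 324, 412, 385 and 112 CPM with isotype and 189.9 to 866 CPM (median 305) without antibody. It was 2.20-fold lower than with isotype (-1.14 ± 0.35, adjusted p = 0.0442) and 2.81-fold lower than without antibody (-1.49 ± 0.29, adjusted p = 0.000323).

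Mmp14 stood at 63.1 to 138 CPM with anti-IL-33 (median 79.3), against 118, 138, 135 and 105 CPM with isotype and 88.1 to 292 CPM (median 136) without antibody. It was 1.496-fold lower than with isotype (log2 fold change -0.58 ± 0.18, adjusted p = 0.0474) and 1.92-fold lower than without antibody (-0.94 ± 0.15, adjusted p = 4.63e-05). Mmp9 stood at 7.23 to 18.05 CPM (median 13.7), against 16.1, 21.9, 22.7 and 29.6 CPM with isotype and 14.9 to 58.8 CPM (median 21.4) without antibody. Although Mmp9 had not passed the test against saline at either HDM time, it was 1.74-fold lower than with isotype (-0.80 ± 0.24, adjusted p = 0.0402) and 2.0-fold lower than without antibody (-1.0 ± 0.20, adjusted p = 0.000402). Without the 2 libraries that stand apart the difference from no antibody was -0.65 for Mmp9 and -0.73 for Mmp14, both called.

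Mmp3 and Mmp2 were called lower only against the no-antibody group, and whether their differences from the 2 controls are unequal was not tested. Mmp3 stood at 10.9 to 27.9 CPM with anti-IL-33 (median 19.9), against 20.4, 32.3, 23.1 and 18.1 CPM with isotype and 18.3 to 43.4 CPM (median 36.7) without antibody. Its log2 fold change was -0.18 ± 0.19 against isotype (adjusted p = 0.540) and -0.72 ± 0.15 against no antibody (adjusted p = 0.000747). Mmp2 stood at 110.0 to 174 CPM (median 128), against 128, 140.4, 128 and 147 CPM with isotype and 109.8 to 285 CPM (median 159) without antibody. Its log2 fold change was -0.05 ± 0.15 against isotype (adjusted p = 0.862, and 0.017 with library totals alone) and -0.30 ± 0.12 against no antibody (adjusted p = 0.0478), and the difference from no antibody was lost in 12 of 22 fits without 1 library (-0.12 without 15-week replicate 1), with library totals alone (-0.12, adjusted p = 0.353) and without the 2 libraries that stand apart (-0.11, adjusted p = 0.399). Mmp8 stood at 3.12 to 25.5 CPM with anti-IL-33 (median 6.46), against 8.19, 11.6, 7.05 and 10.6 CPM with isotype and 6.14 to 15.5 CPM (median 11.3) without antibody, and passed neither test (-0.24 ± 0.31, adjusted p = 0.630, and -0.46 ± 0.25, adjusted p = 0.147). Its highest anti-IL-33 library, replicate 1 at 25.5 CPM, lay above every other library of the series, and without it the difference from no antibody was -0.71 (adjusted p = 0.00733).

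**Figure D3:**
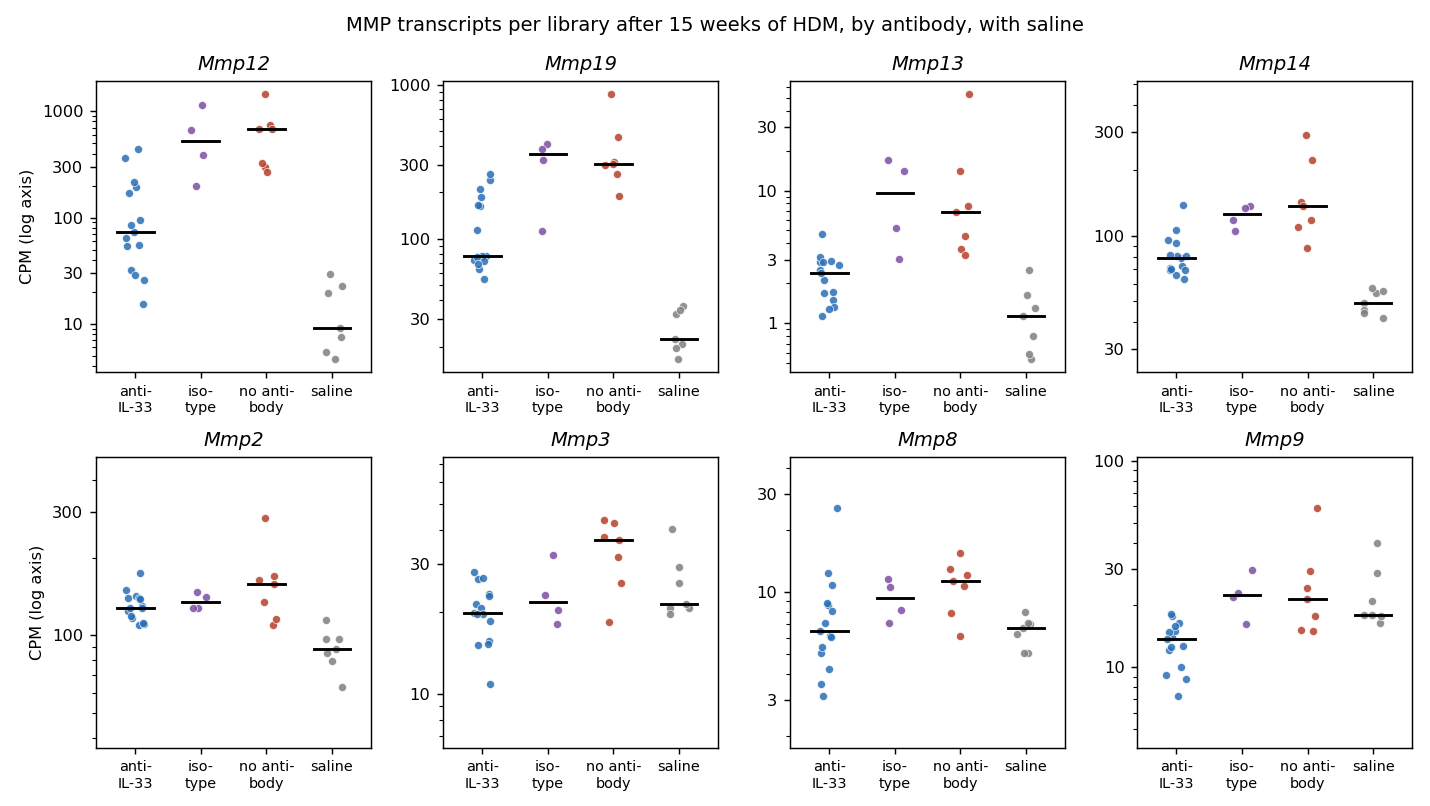
CPM of each MMP (log axis) per library after 15 weeks of HDM with anti-IL-33 (n = 15), with isotype (n = 4) and without antibody (n = 7), beside saline (n = 7). Points are libraries and black lines are medians. The anti-IL-33 medians of Mmp12, Mmp19, Mmp13, Mmp14 and Mmp9 lie below both HDM control medians. Those of Mmp12, Mmp19, Mmp13 and Mmp14 lie above the saline medians, and for Mmp13 the difference from saline was not called.

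The isotype comparison is the thinner of the controls. Isotype libraries number 3 in range 1 and 1 in range 2. Within range 1 the log2 fold changes against isotype were -3.25 for Mmp12, -2.69 for Mmp13 and -1.59 for Mmp19, all called, and -0.77 for Mmp14 and -0.60 for Mmp9, not called (adjusted p = 0.0564 and 0.208). Within range 2, against the single isotype library, they were -0.10, -0.11, 0.20, -0.25 and -1.21, and none was called. Leaving out 1 isotype library left 1 member called without replicate 1, 1 without replicate 2, 0 without replicate 3 and 3 without replicate 4. Without replicate 3, the highest isotype library for Mmp12, the log2 fold change of Mmp12 was -1.96 (adjusted p = 0.125), and this was the single library of 19 whose removal ended the call. The Mmp13 call was lost without isotype replicate 1, 2 or 3, with values no weaker than -1.66. The calls of Mmp9, Mmp19 and Mmp14 were lost with 10, 12 and 15 of the 19 libraries left out in turn. Without 1 anti-IL-33 library, 2 to 5 members were called, and the count was 2 without any 1 of replicates 3, 4, 6, 9, 10 and 14. Against no antibody, the 7 called genes ranged from -3.18 to -0.49 within range 1, all called, and from -1.71 to 0.10 within range 2, which holds 2 no-antibody libraries, none called. Leaving out 1 library of that comparison gave 6 to 8 members called, with Mmp8 gained without anti-IL-33 replicate 1 and Mmp2 lost in 12 fits.

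Isotype and no antibody were also set against each other, as a check on the antibody itself. None of the 8 genes passed, with log2 fold changes of -0.53 to -0.03 and adjusted p from 0.798 to 0.9998, and 0% of all genes were called. For Mmp12 the value of -0.03 was 0.035 with library totals alone. At an unadjusted p under 0.05 the edgeR test had 933 genes, DESeq2 called 8 genes and limma-voom called 0 after adjustment. Its SE of 0.68 for Mmp12 shows how wide a difference this comparison could miss.

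The last contrast asked how lungs given HDM with anti-IL-33 differed from saline lungs. Against saline, the anti-IL-33 lungs were higher for Mmp12, Mmp19, Mmp14 and Mmp2 and lower for Mmp9, with 38.6% of all genes changed, 20% higher and 18.5% lower. Mmp12 was 9.39-fold above saline (log2 fold change 3.23 ± 0.61, adjusted p = 4.69e-05) and Mmp19 4.66-fold (2.22 ± 0.34, adjusted p = 1.48e-06). Mmp14 was 1.66-fold (0.73 ± 0.16, adjusted p = 0.000312) and Mmp2 1.46-fold above saline (0.54 ± 0.12, adjusted p = 0.000569). Mmp14 and Mmp19 did not overlap with saline, as was so for 9.86% of all genes. Mmp9 was 1.69-fold below saline (-0.76 ± 0.20, adjusted p = 0.00250). Mmp13, at a median of 2.37 CPM against 1.13 CPM in saline, did not pass (0.91 ± 0.56, adjusted p = 0.204) except in a fit of only these groups (1.11, adjusted p = 0.00152), nor did Mmp3 (-0.33 ± 0.15, adjusted p = 0.0850) or Mmp8 (0.31 ± 0.27, adjusted p = 0.374). None of the 8 was called within range 1, which holds 2 saline libraries, and there the log2 fold changes were 2.64 for Mmp12, 1.84 for Mmp19 and -0.35 for Mmp9. Within range 2 they were 3.67, 2.51 and -0.94, all called.

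**Figure D4:**
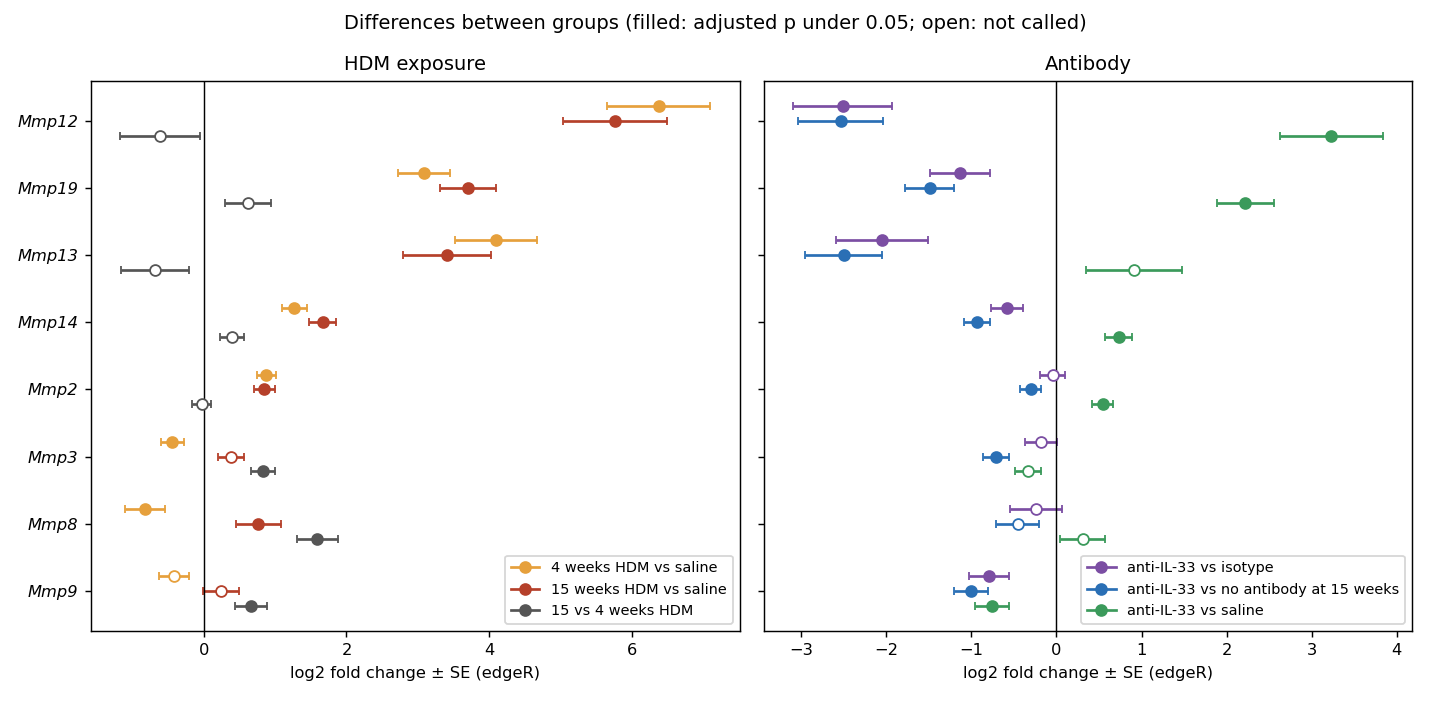
Log2 fold change with its SE for each MMP from the edgeR fit, for the HDM comparisons (left) and the antibody comparisons (right). Filled points have an adjusted p under 0.05 and open points do not. Mmp12, Mmp19, Mmp13, Mmp14 and Mmp2 lie right of 0 at both HDM times, and the anti-IL-33 points of Mmp12, Mmp13, Mmp19, Mmp14 and Mmp9 lie left of 0 against both HDM controls.

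The order of the group medians differed between the transcripts. For Mmp12 the order was saline, anti-IL-33, isotype, 15 weeks and 4 weeks, at 9.17, 73.4, 525, 674 and 908 CPM, and the neighbours isotype and 15 weeks, and 15 and 4 weeks, were not called different. For Mmp13 it was saline, anti-IL-33, 15 weeks, isotype and 4 weeks, at 1.13, 2.37, 6.92, 9.61 and 15.7 CPM, and here saline and anti-IL-33 were not called different either. For Mmp19 it was saline, anti-IL-33, 4 weeks, 15 weeks and isotype, at 22.4, 77.4, 179, 305 and 354 CPM, and 15 against 4 weeks and isotype against 15 weeks were not called different. For Mmp14 it was saline, anti-IL-33, 4 weeks, isotype and 15 weeks, at 48.9, 79.3, 118, 126 and 136 CPM, and for Mmp2 it was that of Mmp12, at 88.5, 128, 134, 159 and 165 CPM. For both, 15 weeks was called different from neither isotype nor 4 weeks, and for Mmp2 anti-IL-33 and isotype were not called different either. For Mmp9 it was anti-IL-33, 4 weeks, saline, 15 weeks and isotype, at 13.7, 17.2, 17.9, 21.4 and 22.3 CPM, and 4 weeks and saline, saline and 15 weeks, and 15 weeks and isotype were not called different. For Mmp3 it was 4 weeks, anti-IL-33, saline, isotype and 15 weeks, at 18.9, 19.9, 21.4, 21.7 and 36.7 CPM, and anti-IL-33 and saline, and isotype and 15 weeks, were not called different. For Mmp8 the 4-week median of 3.41 CPM was the lowest, and anti-IL-33 at 6.46 CPM and saline at 6.69 CPM were neighbours that were not called different.

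The 15 anti-IL-33 libraries were spread 28.3-fold for Mmp12, against 5.85-fold in the 4 isotype and 5.35-fold in the 7 no-antibody libraries, and this spread is a description, since groups of unequal size differ in range. The 5 libraries with the most Mmp12 were replicates 1, 8, 11, 12 and 13, at 195, 172, 362, 218 and 437 CPM. The same 5 held the most Mmp19, at 239, 210, 165, 187 and 262 CPM, and the most Mmp2. They held 4 of the 5 highest places for Mmp3, Mmp8 and Mmp14, 3 for Mmp13 and 2 for Mmp9. The low end was shared less: of the 5 libraries with the least Mmp12, 3 were among the 5 lowest for Mmp2, Mmp8 and Mmp19, 2 for Mmp3 and Mmp13, and 1 for Mmp9 and Mmp14. Some sharing arises by chance between sets of 5 from 15 libraries, and sharing over all genes was not computed. The counts therefore do not show that the order is particular to these genes. Replicates 1, 8 and 12 had the lowest TMM factors of the 15, and replicates 11 and 13 did not. What the 5 libraries with the most Mmp12 share is not given in the labels, and they were not compared as a group.

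At 4 weeks the members of the cluster did not share a direction. Mmp13 and Mmp12, which start 71.9 kb apart, rose 17.1- and 83.1-fold, while Mmp3, 173 kb from the start of Mmp13, and Mmp8, 286 kb from it, fell. The fall of Mmp3 was not called without saline replicate 1 or within either range. At 15 weeks against saline all 4 cluster members had positive log2 fold changes (3.41 for Mmp13, 5.77 for Mmp12, 0.39 for Mmp3 and 0.77 for Mmp8), and with anti-IL-33 against no antibody all 4 had negative ones (-2.50, -2.54, -0.72 and -0.46). Of these values, Mmp3 at 15 weeks and Mmp8 with anti-IL-33 were not called. Both comparisons use the 15-week libraries without antibody, on opposite sides, so opposite signs are partly built in. The 3 genes with an AP-1 motif printed above, Mmp13, Mmp12 and Mmp3, differed in sign at 4 weeks. They shared 1 sign in each of the other 2 comparisons, which are not independent. Of the other 6 genes of the cluster, Mmp27 passed the filter on counts and had log2 fold changes of -0.04 at 4 weeks and 0.50 at 15 weeks, neither called. Mmp1a and Mmp1b, the mouse counterparts of human interstitial collagenase, had no count in any library, and Mmp7, Mmp10 and Mmp20 had 7, 92 and 6 counts over all 43 libraries.

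**Figure D5:**
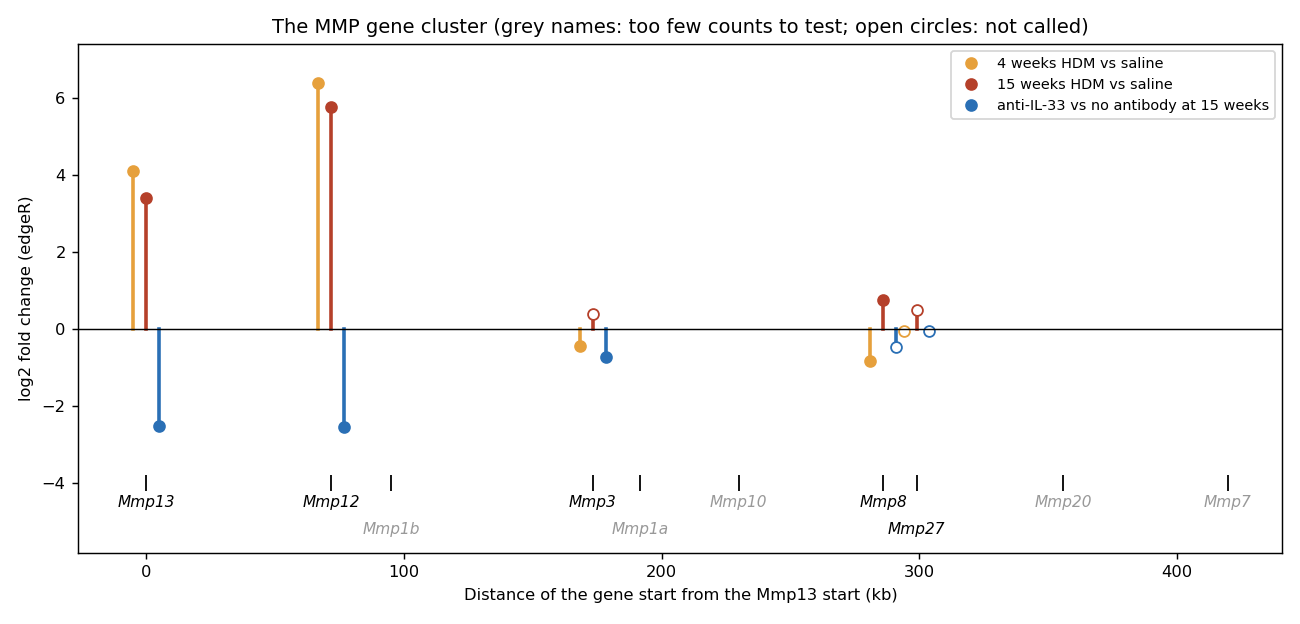
Log2 fold changes of the MMP genes of the chromosome 9 cluster, placed by the distance of each gene's start from that of Mmp13 in kb. Each gene has a line for 4 weeks of HDM against saline, 15 weeks of HDM against saline and anti-IL-33 against no antibody, set side by side, with open circles where the test did not pass. Mmp13 and Mmp12, at the left end, have the largest changes, and genes in grey had too few counts to test.

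Outside the 8, 15 other MMP genes were in the table and 8 of them passed the filter. At 4 weeks and at 15 weeks 3 rose and 3 fell against saline. Of all tested genes 29.3% rose and 27.5% fell at 4 weeks, and 31.2% rose and 28.1% fell at 15 weeks. Mmp25, a membrane-bound MMP of leukocytes, rose at both times (log2 fold change 1.57 ± 0.24 and 1.24 ± 0.27), as did Mmp17 (1.17 ± 0.25 and 0.97 ± 0.28), also bound to the membrane, and Mmp23 (0.59 ± 0.22 and 0.78 ± 0.25). Mmp11 (-0.53 ± 0.11 at 4 weeks), Mmp16 (-0.96 ± 0.36) and Mmp28 (-0.97 ± 0.26), an epithelial and macrophage MMP called epilysin, fell at both times. Against no antibody, Mmp17 (-0.97 ± 0.22), Mmp25 (-0.92 ± 0.22) and Mmp23 (-0.61 ± 0.20) were lower with anti-IL-33, beside 19.9% of all tested genes. Against isotype 0 of the 8 were called, where 6.71% of all genes changed. Mmp15 and Mmp27 passed no test.

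The inhibitors moved in opposite directions. Timp1, the inducible and soluble inhibitor, averaged 15.6 ± 12.2 CPM with anti-IL-33 (SD, n = 15), 76.03 ± 39.4 CPM with isotype (n = 4), 95.5 ± 70.5 CPM at 15 weeks without antibody (n = 7), 44.6 ± 26.1 CPM at 4 weeks (n = 10) and 5.44 ± 2.86 CPM in saline (n = 7). It rose at 4 weeks (log2 fold change 3.04 ± 0.53) and 15 weeks (4.16 ± 0.58) and fell under anti-IL-33 against isotype (-2.29 ± 0.49, adjusted p = 0.00687). Timp3, which is bound to matrix, and Reck, a membrane-anchored inhibitor, fell at 15 weeks against saline (-1.33 ± 0.15 and -2.12 ± 0.23) and were higher with anti-IL-33 than with isotype (0.52 ± 0.16 and 0.81 ± 0.25). Timp2, which also takes part in the activation of proMMP-2 by Mmp14, fell slightly at both times (-0.28 ± 0.11 and -0.28 ± 0.12), and Timp4 passed no test. Of the 5 inhibitors, 1 rose and 3 fell at each HDM time, where 56.8% of all tested genes changed at 4 weeks and 59.2% at 15 weeks. With anti-IL-33, 2 were higher and 1 lower than with isotype, where 6.71% of all genes changed.

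Of 12 matrix substrates of these enzymes, 7 rose at 4 weeks and 11 at 15 weeks against saline, and none fell, with medians of 0.79 and 1.26 against 0.01 over all genes. Of all tested genes 29.3% rose and 27.5% fell at 4 weeks, and 31.2% rose and 28.1% fell at 15 weeks. Tenascin C (Tnc; log2 fold change 2.55 ± 0.28 at 15 weeks), osteopontin (Spp1; 5.34 ± 0.62), collagen III (Col3a1; 1.51 ± 0.21) and fibronectin (Fn1; 1.29 ± 0.21) rose. All 12 were lower with anti-IL-33 than without antibody, and 3 were lower than with isotype, namely Spp1 (-1.98 ± 0.50), Tnc (-0.92 ± 0.26) and Col3a1 (-0.70 ± 0.20). Of all tested genes 19.9% were lower with anti-IL-33 than without antibody and 3.14% lower than with isotype. Of 10 genes for MMP activation and docking, 5 rose and 2 fell at 4 weeks, and 7 rose and 2 fell at 15 weeks. At 15 weeks Plaur, the receptor of the plasminogen activator urokinase, rose by 1.999 ± 0.23 and Cd44, a hyaluronan receptor that holds Mmp9 at the cell surface, by 1.32 ± 0.15 on the log2 scale. Pcsk5, a proprotein convertase, rose by 0.90 ± 0.12 at 4 weeks and 0.52 ± 0.13 at 15 weeks. Against no antibody 6 of the 10 were lower with anti-IL-33, and against isotype 1. Of 14 ADAM and ADAMTS genes, the related metalloproteinases, 6 rose and 3 fell at 4 weeks and 7 rose and 2 fell at 15 weeks. At these times 56.8% and 59.2% of all tested genes changed, so the counts of this list lie close to that share. Adamts4, an aggrecanase, rose by 2.89 ± 0.44 and Adam8, an ADAM of leukocytes, by 1.72 ± 0.21 at 15 weeks, while Adam19 rose by 0.91 ± 0.13 and Adamts10 fell by 1.13 ± 0.13. Against isotype, 1 of the 14, Adamts4, was lower with anti-IL-33 (-1.26 ± 0.39), beside 3.14% of all tested genes.

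Markers of cells that make MMPs were read beside these results, and some lists moved with the MMPs while others did not. Of 12 neutrophil markers 9 were tested, and none was at 0 in a whole group. Summed, the 12 stood at 157 to 537 CPM with anti-IL-33, 405 to 550 CPM with isotype, 328 to 1109 CPM at 15 weeks without antibody, 233 to 543 CPM at 4 weeks and 153 to 284 CPM in saline. At 4 weeks 4 rose and 1 fell, at 15 weeks 8 rose and none fell, and with anti-IL-33 5 were lower than with isotype and 6 lower than without antibody. Of all tested genes 29.3% rose and 27.5% fell at 4 weeks, and 31.2% rose and 28.1% fell at 15 weeks. With anti-IL-33, 3.14% of all genes were lower than with isotype and 19.9% lower than without antibody. S100a8, an alarmin of neutrophils, had the same order as Mmp8 between the times, with log2 fold changes of -0.36 ± 0.27 at 4 weeks, not called, and 1.11 ± 0.31 at 15 weeks against saline, and 1.47 ± 0.27 at 15 against 4 weeks, while Ly6g, a surface protein of mouse neutrophils, rose at both times (1.604 ± 0.55 and 2.56 ± 0.57). S100a9, the partner of S100a8, had 0.86 ± 0.32 at 15 weeks against saline and 0.98 ± 0.28 at 15 against 4 weeks, both called. Csf3r, the receptor of granulocyte colony-stimulating factor, fell at 4 weeks (-0.58 ± 0.20), as Mmp8 did, and rose at 15 weeks (0.61 ± 0.23). Il1r2, a decoy receptor of IL-1, and Retnlg rose at both times and were lower with anti-IL-33 than with isotype (-1.41 ± 0.35 and -1.36 ± 0.25). The share of neutrophils in the Mmp8 and Mmp9 differences was not tested.

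Of 11 markers of monocytes and interstitial macrophages, 9 rose and 1 fell at each HDM time. Of all tested genes 29.3% rose and 27.5% fell at 4 weeks, and 31.2% rose and 28.1% fell at 15 weeks. Summed levels of the 11 were 831 to 1374 CPM at 4 weeks and 1228 to 1999 CPM at 15 weeks against 252 to 554 CPM in saline. With anti-IL-33 the sum was 763 to 1913 CPM, against 1272 to 1579 CPM with isotype. C1qb and Ms4a7, markers of interstitial macrophages, rose at 4 weeks (log2 fold changes 2.57 ± 0.17 and 3.22 ± 0.19) but neither was called lower with anti-IL-33 than with isotype (-0.27 ± 0.17 and -0.49 ± 0.18), where Mmp12 fell by 2.51. The complement genes C1qa and C1qc rose by 2.48 ± 0.20 and 2.34 ± 0.18 at 4 weeks and were at -0.16 ± 0.20 and -0.12 ± 0.18 against isotype, not called. In all, 1 of the 11 was lower with anti-IL-33 than with isotype and 2 lower than without antibody, beside 3.14% and 19.9% of all genes. Of 9 alveolar macrophage markers, 5 rose and 1 fell at each time. With anti-IL-33, 1 of these 9 was higher and none lower against isotype or no antibody (3.58% and 15.9% of all genes higher). Their summed level, mostly Chil3, was 1510 to 22985 CPM with anti-IL-33, 9124 to 21887 CPM with isotype, 7254 to 17740 CPM at 15 weeks, 6870 to 15593 CPM at 4 weeks and 501 to 2290 CPM in saline. Chil3, a secreted chitinase-like protein, rose by 4.02 ± 0.50 at 4 weeks, Atp6v0d2 by 2.80 ± 0.33 and Pparg, a transcription factor of alveolar macrophages, by 0.72 ± 0.20. Ear1 fell by 2.84 ± 0.33 at 4 weeks and was the gene higher with anti-IL-33 than with isotype (1.64 ± 0.42). Marco, a scavenger receptor, rose at 15 weeks (1.93 ± 0.81), and Siglecf passed neither HDM test (0.51 ± 0.25 and -0.04 ± 0.28). None of either list was at 0 in a group, and the part of macrophage number in the Mmp12 and Mmp19 differences was not tested.

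Most fibroblast markers did not follow the stromal MMPs. Of 10, 2 rose and 4 fell at 4 weeks, beside 29.3% and 27.5% of all tested genes. At 15 weeks none rose and 5 fell, beside 31.2% and 28.1% of all genes. With anti-IL-33, 6 were higher than without antibody, beside 15.9% of all genes. The genes named next were taken for their smallest p or as fixed markers, and they are among those that fell at 15 weeks. Pdgfra, a receptor of lung fibroblasts, fell by 1.59 ± 0.18 at 15 weeks on the log2 scale, while Mmp14 rose by 1.67. Inmt (-2.74 ± 0.31), Tcf21 (-1.92 ± 0.28), Npnt (-1.55 ± 0.21) and the matrix proteoglycan Dcn (-0.75 ± 0.25) also fell at 15 weeks. The summed level of the 10 was 939 to 2132 CPM with anti-IL-33, 912 to 1171 CPM with isotype, 567 to 1071 CPM at 15 weeks, 1062 to 1832 CPM at 4 weeks and 2306 to 2935 CPM in saline, and none of them was at 0 in a group. What fibroblast number contributes to the Mmp2 and Mmp14 differences was not tested. For Mmp13, which is known from cartilage, markers of airway cartilage were looked at. The defining genes Col2a1 and Acan reached at most 0.199 and 0.300 CPM in any library, and 6 of the 8 markers had too few counts to test. Col9a1 and Col10a1 had no count with isotype, and Acan and Col10a1 had none in saline. The exceptions, Sox9, also a gene of airway epithelium, and Comp, rose at both times, and Sox9 was lower with anti-IL-33 than with isotype (-2.55 ± 0.46). Summed, the 8, with Sox9 and Comp included, stood at 1.32 to 7.31 CPM with anti-IL-33, 5.70 to 30.6 CPM with isotype, 6.9997 to 47.04 CPM at 15 weeks, 6.93 to 40.8 CPM at 4 weeks and 1.33 to 2.99 CPM in saline. Because Sox9 is in it, this sum is not a measure of cartilage alone. The part of these markers in the Mmp13 result was not tested. Of 7 lung epithelium markers, which check the tissue label, all were present in every group, with a summed level of 20948 to 59645 CPM over all libraries. At 4 weeks Sftpa1 (0.98 ± 0.13) and Sftpc (0.64 ± 0.16), surfactant proteins, rose, and Hopx (-1.05 ± 0.18) and the club cell gene Scgb1a1 (-0.95 ± 0.21) fell.

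Over all 43 libraries, the genes whose profiles lay closest to each MMP were found by the root mean square difference in log2 CPM after centring each gene on its mean. For Mmp12 the closest was Arg1, arginase 1 of alternatively activated macrophages, at 0.74 log2 units, followed by Col6a5 at 0.94, with the profile of Mmp12 itself having an SD of 2.48. For Mmp13 they were Prss46 (0.66) and Ccl9 (0.76), for Mmp19 Rgs1 (0.49) and Rnf128 (0.52), and for Mmp14 Marcksl1 and the collagen I gene Col1a2 (0.22 each). For Mmp8 (own SD 0.76) they were Trem1 (0.49), a receptor of neutrophils and monocytes, and Nlrp3 (0.51), an inflammasome sensor. For Mmp2 they were Ppp1r18 (0.22) and Cacnb3 (0.23), for Mmp3 Gadd45b and Serping1 (0.34 each), and for Mmp9 Palm (0.38) and Selenon (0.39), beside SDs of these genes' own profiles of 0.38, 0.43 and 0.54. These distances describe likeness across libraries that share groups and depth, and carry no test.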

How the data were processed

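Gene-level read counts for 43 whole-lung libraries were analysed as deposited by the authors: whole-number counts per Entrez gene ID, not normalized. Libraries were made from mRNA with a KAPA stranded kit, per the labels' protocols, and the genome build was GRCm38, per the submitters' processing notes. Which aligner, counter, gene models and strand setting were used was not stated, so reads of overlapping genes may be split either way. Of 24475 IDs, 24375 matched RefSeq symbols, and the other 100 held 2.62% of counts. No 2 libraries shared more than 2.92% of identical counts.

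Genes were kept by edgeR's filterByExpr (15598 of 24475). All 43 libraries were fitted together with edgeR 4.0.16 (quasi-likelihood test, robust, TMM size factors) in R 4.3.3, with a term for each of the 5 groups and for the number range, and 7 comparisons were read from it. Calls are at a Benjamini-Hochberg adjusted p under 0.05 over all genes tested. A standard error is the log2 fold change divided by the root of its F statistic. The procedure was first run on simulated counts. These held no effect of the number range, no library that stands apart and far fewer changed genes than the comparisons with saline. They therefore do not bear on how stable the calls are in these data. Values per kb use the union of exons of GENCODE basic transcripts on GRCm38.p6, and log2 profiles use a prior count of 2. Python 3.11.15, NumPy 2.4.6, pandas 2.3.3 and matplotlib 3.10.9 were used for summaries and plots. Counting error limits the precision of scarce transcripts such as Mmp13 and Mmp8.

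The members and the gene lists were chosen with earlier results of these data known, so no count of a list is independent support. Named were all 8 members, all inhibitors, every other MMP that could be tested, up to 4 genes with the smallest p in each further list and a few fixed markers, and the 2 nearest profiles of each member (predicted and clone-named genes left out). A gene that this rule names is not reported here. Alternatives were library totals or DESeq2 1.42.0 size factors for scaling, no filter on low counts, no term for the range, each range alone, only the groups compared, DESeq2, limma-voom (limma 3.58.1), isotype and no antibody as 1 control, no libraries that stand apart, and each isotype library left out. Leaving out the libraries of the other groups was chosen after seeing the data.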

Additional observations from a re-analysis of the deposited data

Results flagged for a closer look

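In groups of 4 to 10 libraries, the highest or lowest library was set against the range of its group for each gene (Dixon's criterion). For normally distributed values in independent groups, chance alone meets it in about 1 of 20 groups. It was met in 6 of 32 groups checked, and each time by the highest library. The groups share libraries across genes, and whether CPM are normally distributed was not tested. The count of 6 therefore cannot be set against that rate. At 15 weeks without antibody, replicate 1 stood apart for Mmp2 at 285 CPM and for Mmp9 at 58.8 CPM, and this is also the library with the lowest correlation with its group. At the same time, replicate 4 stood apart for Mmp12 at 1443 CPM, Mmp13 at 53.2 CPM and Mmp19 at 866 CPM. At 4 weeks, replicate 2 stood apart for Mmp19 at 453 CPM.

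The HDM differences from saline were unequal at the 2 times for 3 genes, by the contrast of 15 with 4 weeks in edgeR's quasi-likelihood test. The log2 difference was 0.83 for Mmp3, 1.59 for Mmp8 and 0.66 for Mmp9, each higher at 15 weeks, and the Mmp9 call was lost without any 1 of 4 libraries, with 0.32 without replicate 1 at 15 weeks.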

How the results depend on the processing

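No paired analysis was possible because the labels give no shared replicate numbers that tie libraries of one group to those of another. When values of single members were recomputed under the alternatives other than leaving out 1 library, 511 kept their direction and their side of the threshold, 36 kept direction and lost the call, 6 gained it and 15 changed sign. The cause of these changes was not tested.

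Within number range 1 alone, 4 members and 2308 genes were called at 4 weeks against saline (8864 genes in the full fit), 4194 genes at 15 weeks against saline (9235), 1406 at 15 against 4 weeks (3334), 3 members and 297 genes against isotype (1047), 3560 genes against no antibody (5588), and 0 members and 578 genes for anti-IL-33 against saline (6015). Within range 2 alone, 1 member and 149 genes were called at 15 against 4 weeks, 0 members and 1 gene against isotype, 0 members and 4 genes against no antibody, and 1 gene between isotype and no antibody. A range holds fewer libraries than the full fit.

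Against isotype, the count of all genes was the least stable. It was 687 with no filter (3 members), 1704 with DESeq2, 4153 with only the groups compared, 4639 without the 2 libraries that stand apart and 5802 with isotype and no antibody as 1 control. Without 1 library, 0 to 5 members and 58 to 1502 genes were called. Without 1 library against no antibody, 3459 to 6251 genes were called, the fewest without 15-week replicate 1. With only the groups compared, 1206 genes were called at 15 against 4 weeks. Between isotype and no antibody, 3 genes were called with library totals, 7 with no filter, 4 with no range term, 8 with DESeq2, 1 without the 2 libraries that stand apart, and 0 to 11 without 1 library.

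Scaling by library totals moved the median of all genes by -0.17 at 15 weeks against saline (3410 higher and 5924 lower, against 4859 and 4376), by -0.14 at 15 against 4 weeks (1036 and 2937, against 1918 and 1416) and by 0.14 for anti-IL-33 against no antibody (4040 and 1670, against 2485 and 3103).

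The log2 fold changes that changed sign were these. At 15 weeks against saline Mmp9 was -0.019 with library totals, -0.58 within range 2, -0.094 without the libraries that stand apart and -0.074 to 0.41 without 1 library. At 15 against 4 weeks Mmp2 was 0.18 within range 1 and -0.21 to 0.055 without 1 library, and within range 2 Mmp9 was -0.19 and Mmp14 -0.16. Against isotype Mmp2 was 0.017 with library totals and -0.082 to 0.015 without 1 library, and within range 2 Mmp3 was 0.26 and Mmp19 0.20. Against no antibody Mmp2 was 0.10 within range 2. Between isotype and no antibody Mmp12 was 0.035 with library totals, 0.073 within range 1 and -0.59 to 0.38 without 1 library. There Mmp13 was -0.86 to 0.62 without 1 library, Mmp2 was 0.23 within range 2, and Mmp9 was 0.85 within range 2, 0.15 without the libraries that stand apart and -0.34 to 0.15 without 1 library. Depth limited the scarce transcripts, with a lowest count of 4 for Mmp13.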
